A study of Mus musculus with 6 samples.

Results

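The 9 genes described here encode CXC chemokines and chemokine receptors: the ligands Cxcl1, Cxcl2, Cxcl9, Cxcl10 and Cxcl16 and the receptors Ccr1, Ccr2, Cx3cr1 and Cxcr4. They were taken by name, and each was read at the probe sets that the platform annotation lists with that gene alone, which gave 1 probe set per gene, 9 of 41345 in all, and 9 of the 22180 genes with a probe set of their own. Their RNA was measured in RAW 264.7 cells, a mouse macrophage-like tumour line, on 6 expression arrays. A GapmeR, a locked nucleic acid antisense oligonucleotide with which RNase H is recruited to cut a matching RNA, had been delivered at 50 nM by lipid transfection 48 h before collection. In 3 samples (Mist-targeted) the GapmeR was directed at the long noncoding RNA Mist, and in 3 (Control) it had no intended target, so all 6 samples share the transfection and the locked nucleic acid chemistry. The annotation used here gave no probe set the name Mist, so its level was not analysed here. Group membership comes from the labels alone, which describe 1 Mist GapmeR and 1 cell line and do not say whether the samples were separate cultures.

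Chemokines are small secreted proteins that guide the migration of leukocytes through receptors coupled to inhibitory G proteins, and macrophages both release them and respond to them. Among CXC chemokines, CXCL1 and CXCL2 draw neutrophils through CXCR2, whereas CXCL9 and CXCL10 draw activated T and NK cells through CXCR3 and are known for their induction by interferons. CXCL16 is made as a membrane-bound protein that binds CXCR6 and also takes up oxidised lipid, and its soluble form is released by ADAM proteases. CCR2 is the receptor of CCL2 that brings monocytes out of the bone marrow, CCR1 binds several inflammatory CC chemokines, CX3CR1 binds fractalkine and marks resident and patrolling mononuclear phagocytes, and CXCR4 is the receptor of CXCL12 that retains leukocytes in the marrow and is known to be induced by hypoxia.

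Promoter sequences are shown for Cxcr4, the only one of the 9 genes past the test, and for Cxcl10 and Cxcl9, which lie on the same chromosome with 1 protein-coding gene, Art3, listed between them and encode ligands of the same receptor. They come from RefSeq on build GRCm38.p6, run 5′ to 3′ on the strand of the gene, and hold 250 bases before and 50 bases after the transcription start; 8 of the 9 genes were matched in that table, all except Cxcl16. Capitals mark matches, on either strand, to an NF-kB site (GGNNNTTCC), an interferon response element (GAAANNGAA), a gamma-activated sequence (TTCNNNGAA) or the core of a hypoxia response element (ACGTG or GCGTG). The windows are chr1:128592250-128592549 on the minus strand for Cxcr4, chr5:92348840-92349139 on the minus strand for Cxcl10 and chr5:92328030-92328329 on the minus strand for Cxcl9.
Cxcr4: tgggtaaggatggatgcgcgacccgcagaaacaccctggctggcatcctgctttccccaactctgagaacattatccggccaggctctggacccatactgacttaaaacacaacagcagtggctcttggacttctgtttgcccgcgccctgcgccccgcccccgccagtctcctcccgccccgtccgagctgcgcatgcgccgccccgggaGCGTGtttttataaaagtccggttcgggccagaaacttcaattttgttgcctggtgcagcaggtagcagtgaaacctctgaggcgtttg
Cxcl10: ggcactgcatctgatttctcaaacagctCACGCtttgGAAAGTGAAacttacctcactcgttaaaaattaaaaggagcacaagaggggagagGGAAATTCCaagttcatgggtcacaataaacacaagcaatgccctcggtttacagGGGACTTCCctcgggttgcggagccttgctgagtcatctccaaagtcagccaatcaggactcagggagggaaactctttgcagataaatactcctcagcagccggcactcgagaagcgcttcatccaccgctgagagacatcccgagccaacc
Cxcl9: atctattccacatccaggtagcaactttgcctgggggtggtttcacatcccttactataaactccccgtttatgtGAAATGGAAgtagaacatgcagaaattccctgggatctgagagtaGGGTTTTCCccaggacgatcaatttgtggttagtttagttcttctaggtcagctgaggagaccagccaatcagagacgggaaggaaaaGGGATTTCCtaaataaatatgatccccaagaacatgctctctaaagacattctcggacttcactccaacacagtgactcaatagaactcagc
The Cxcr4 window held 1 match, GCGTG, which starts 39 bases before the transcription start. The Cxcl10 window held 2 NF-kB matches, 1 interferon response element match and 1 hypoxia core match, and the Cxcl9 window held 2 NF-kB matches and 1 interferon response element match. None of these matches overlapped a match to another of the motifs. Both Cxcl1 and Cxcl2 had 2 NF-kB matches, among them the same letters GGAATTTCC, which fit the pattern on either strand, and no NF-kB match was found in the windows of the 4 receptor genes. The hypoxia core was not particular to Cxcr4: 6 of the 8 windows held it, all except those of Cxcl9 and Ccr2. The interferon response element was in 3 of the 8 windows, those of Cxcl9, Cxcl10 and Ccr2, and the gamma-activated sequence in 0. For comparison, 18.5% of the 32851 promoter windows of this length held the NF-kB letters, 8.56% the interferon response element, 8.30% the gamma-activated sequence and 43.8% the hypoxia core. A match is a run of letters and does not show that a factor binds there.

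Values are log2 expression as deposited, with array medians between 4.47 and 4.50. The number of arrays limits the precision: the median standard error of a difference over all probe sets was 0.11. Of 9 measured macrophage markers, 8 lay above every array median on all 6 arrays, among them Csf1r, Cd68 and Spi1, whereas of the markers of neutrophils (8), T and NK cells (7), B cells (4), dendritic cells (4) and fibroblasts (5) only 1 did, the fibroblast gene Col1a1. The mean level of the macrophage list was 9.78 to 9.86 on Mist-targeted arrays and 9.67 to 9.73 on Control arrays. This was no shift of the whole list: 5 of its 9 differences were positive and 4 negative, with a median of 0.013. Only Fcgr1, an Fc receptor gene, passed, with a rise of 1.01 ± 0.086 (log2 difference ± SE, adjusted p = 0.012), and Cd14 differed by -0.28 ± 0.10 (adjusted p = 0.42). The part of these marker levels in the results below was not tested. In total RNA of a culture, fewer cells that express a gene and less of its RNA per cell cannot be told apart.

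Cxcr4 was lower in Mist-targeted cells. Its log2 expression was 6.02, 5.94 and 5.74 on the Mist-targeted arrays, against 6.86, 6.85 and 6.89 on the Control arrays. All 3 Mist-targeted values lay below all 3 Control values, and the Control values lay close together. The means were 5.90 ± 0.14 in Mist-targeted and 6.87 ± 0.017 in Control cells (SD, n = 3 each), a difference of -0.97 ± 0.097 (SE), or 1.95-fold lower (limma, Benjamini-Hochberg adjusted p = 0.020 over all probe sets). It was thus the 1 of 9 genes to pass at an adjusted p under 0.05, where 0.254% of all 41345 probe sets did and 0.126% fell, and where 0.415% of the 22180 genes passed. By size it was the 19th of the 45 genes that fell. The size hardly depended on any array, lying between -1.03 and -0.89 when each array was left out in turn, but the call did: the adjusted p was then 0.062 to 0.11, and Cxcr4 passed in 0 of these 6 fits. Over the other 9 settings tried it lay between 0.00030 and 0.14.

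**Figure D1:**
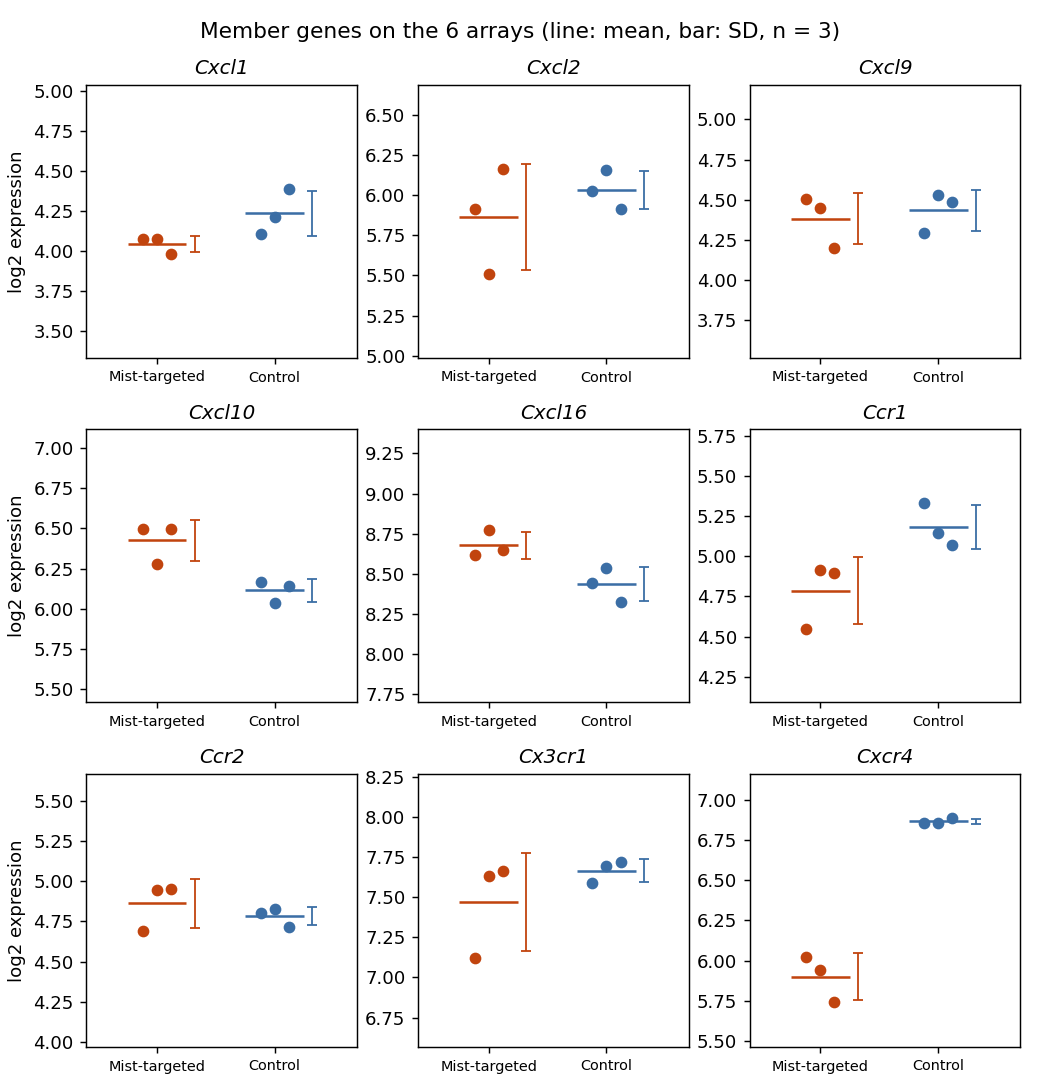
Log2 expression of the 9 genes on each array (points), with the mean of each group (line) and its SD (bar, n = 3), Mist-targeted arrays on the left and Control arrays on the right; every panel spans the same log2 range around its own centre. The groups lie far apart for Cxcr4, lie apart by less for Cxcl1, Cxcl10, Cxcl16 and Ccr1, and overlap for Cxcl2, Cxcl9, Ccr2 and Cx3cr1.

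None of the measured genes beside Cxcr4 passed. Of the 6 nearest protein-coding genes in the GRCm38.p6 gene table, looked up after the value of Cxcr4 was known, 5 were measured and 0 passed (3 on either side were sought; differences -0.11 to 0.36). The highest was the replication helicase gene Mcm6, whose values of 10.01, 9.94 and 10.04 on Mist-targeted arrays lay above those of 9.60, 9.67 and 9.66 on Control arrays (adjusted p = 0.16). Cxcl12, which encodes the ligand of CXCR4, differed by 0.05 ± 0.079, and Ackr3, the scavenging receptor of the same ligand, by -0.05 ± 0.12. Both lay near the array medians, so a low signal limits what can be seen. The means were 4.51 in Mist-targeted and 4.46 in Control cells for Cxcl12, and 4.59 and 4.64 for Ackr3. Hif1a, which encodes the oxygen-regulated subunit of HIF-1, differed by -0.09 ± 0.089. None of these 3 passed (adjusted p between 0.84 and 0.95).

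Over the 6 arrays, the values most like those of Cxcr4 were found for Plcb4, a phospholipase C gene (Pearson r = 0.996), Fnip2, a partner of folliculin (r = 0.996), and the centrosomal protein gene Cep170 (r = 0.994). Plcb4 had 8.44, 8.44 and 8.24 on Mist-targeted arrays against 9.12, 9.04 and 9.12 on Control arrays, and fell by 0.72 on the log2 scale (adjusted p = 0.039). Fnip2 and Cep170 had differences of -0.26 and -0.35 and did not pass (adjusted p = 0.29 and 0.16). The search covered the 22180 genes without the 9 described here and without those with Gm, Rik or LOC symbols. With so many genes searched over 6 arrays, these correlations are a description.

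The other 3 receptor genes did not pass. Ccr1 had 4.55, 4.91 and 4.90 on Mist-targeted arrays against 5.33, 5.14 and 5.07 on Control arrays. The groups did not overlap, and the lowest value was that of Mist-targeted replicate 1. The difference was -0.40 ± 0.13 (SE; unadjusted 95% interval -0.70 to -0.10; adjusted p = 0.35), and without that replicate it was -0.28. Cx3cr1 had 7.12, 7.63 and 7.66 on Mist-targeted arrays against 7.59, 7.69 and 7.72 on Control arrays. The groups overlapped, and again Mist-targeted replicate 1 stood lowest: the difference of -0.19 ± 0.15 (interval -0.55 to 0.16; adjusted p = 0.77) shrank to -0.02 once it was left out. Ccr2 had 4.69, 4.95 and 4.95 on Mist-targeted arrays against 4.81, 4.83 and 4.72 on Control arrays, all not far above the array medians. These groups overlapped as well, with a difference of 0.08 ± 0.10 (interval -0.16 to 0.32; adjusted p = 0.89) that was 0.17 without Mist-targeted replicate 1. The same array was thus the lowest of its group for all 3 of these genes, while for Cxcr4 it was the highest.

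Ccr1 and Ccr2 belong to a cluster of receptor genes on chromosome 9. Among the measured neighbours of Ccr1 there, the differences of Cxcr6, Xcr1, Ccr1l1 and Ccr3 lay between -0.09 and 0.07. All 6 of the nearest protein-coding genes around Ccr1 had differences of -0.16 to 0.08 and 0 of them passed. Those beside Cx3cr1 included Ccr8 at 0.19 ± 0.084 (adjusted p = 0.53) and the transcription factor gene Csrnp1 at -0.70 (adjusted p = 0.056). The values over the 6 arrays most like those of Ccr1 were those of the squalene epoxidase gene Sqle (Pearson r = 0.991), the Rab prenylation gene Rabggtb (r = 0.991) and Fam162a (r = 0.991). Their differences were -0.16, -0.35 and -0.61, and 0 of the 3 passed (adjusted p between 0.27 and 0.63).

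Of the 5 ligand genes, Cxcl10 and Cxcl16 had positive differences, and neither passed. Cxcl10 had 6.50, 6.28 and 6.50 in Mist-targeted cells against 6.16, 6.03 and 6.14 in Control cells. The groups did not overlap, and the means were 6.43 ± 0.13 and 6.11 ± 0.070 (SD, n = 3 each). The difference of 0.31 had an unadjusted 95% interval of 0.086 to 0.54, or 1.24-fold, and did not pass over all probe sets (limma, adjusted p = 0.32). Cxcl16 had 8.61, 8.77 and 8.65 in Mist-targeted cells against 8.44, 8.54 and 8.33 in Control cells. Again the groups did not overlap, and the difference of 0.24 ± 0.094 (interval 0.022 to 0.46; adjusted p = 0.46) was 1.18-fold. Both differences were positive in every alternative tried, from 0.27 to 0.39 for Cxcl10 and from 0.19 to 0.29 for Cxcl16, and neither passed in any of them.

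**Figure D2:**
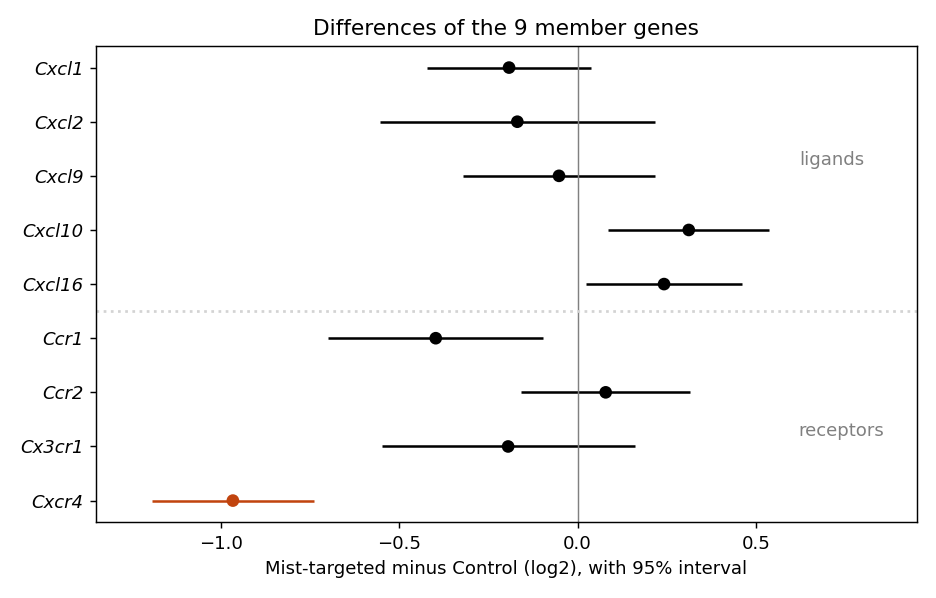
Log2 difference, Mist-targeted minus Control, of the 9 genes (points) with the unadjusted 95% interval of the limma fit (lines), ligands above and receptors below the dotted line; red marks an adjusted p under 0.05. The interval of Cxcr4 runs from -1.19 to -0.74, and those of Cxcl10, Cxcl16 and Ccr1 also leave out 0 before adjustment, while the other 5 span it.

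Cxcl9, the close relative of Cxcl10, had 4.50, 4.45 and 4.20 on Mist-targeted arrays against 4.29, 4.53 and 4.48 on Control arrays. The groups overlapped, and both means, 4.38 ± 0.16 and 4.43 ± 0.13 (SD, n = 3 each), lay below every array median, so a low signal limits what can be seen. The difference was -0.05 ± 0.11 (SE; interval -0.32 to 0.22; adjusted p = 0.94) and changed sign without Mist-targeted replicate 3, to 0.04. Whether the difference of Cxcl10 exceeds that of Cxcl9 was not tested. Of the other genes beside them, Sdad1, Art3 and Nup54 had differences of 0.14, -0.21 and 0.04, and Scarb2, which encodes a lysosomal membrane protein, had 0.30 (adjusted p = 0.25).

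The neutrophil attractants Cxcl1 and Cxcl2 are neighbours on chromosome 5. Cxcl1 had 4.07, 4.07 and 3.98 on Mist-targeted arrays against 4.11, 4.22 and 4.39 on Control arrays. The groups did not overlap, but by a small margin, and every value lay below the median of every array. The difference was -0.19 ± 0.098 (SE; interval -0.42 to 0.037; adjusted p = 0.61), and without Control replicate 3 it was -0.12. Cxcl2 had 5.92, 5.51 and 6.16 in Mist-targeted cells against 6.03, 6.16 and 5.91 in Control cells. Its Mist-targeted values were the most scattered of the 9 genes (SD 0.33, against 0.12 in Control), the groups overlapped, and the difference was -0.17 ± 0.17 (interval -0.56 to 0.22; adjusted p = 0.83). Leaving out Mist-targeted replicate 2 brought it to 0.0067. The adjoining Cxcl3 and Cxcl15 had differences of -0.11 and -0.04, and Pf4, platelet factor 4, had 0.44 ± 0.11 (adjusted p = 0.20).

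Read together, 3 of the 9 genes had a positive difference and 6 a negative one, with a median of -0.17, where the median over all probe sets was 0.0057. The groups did not overlap for 5 of the 9, of which 2 were higher and 3 lower in Mist-targeted cells. Of all probe sets, 15.9% had no overlap between groups, with Mist-targeted values higher in 8.20% and lower in 7.72%. At an unadjusted p under 0.05 stood 4 of the 9 genes (Cxcl10, Cxcl16, Ccr1 and Cxcr4), against 9.70% of all probe sets. The genes had been chosen by name with results of these arrays known, so these shares are given as a description.

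**Figure D3:**
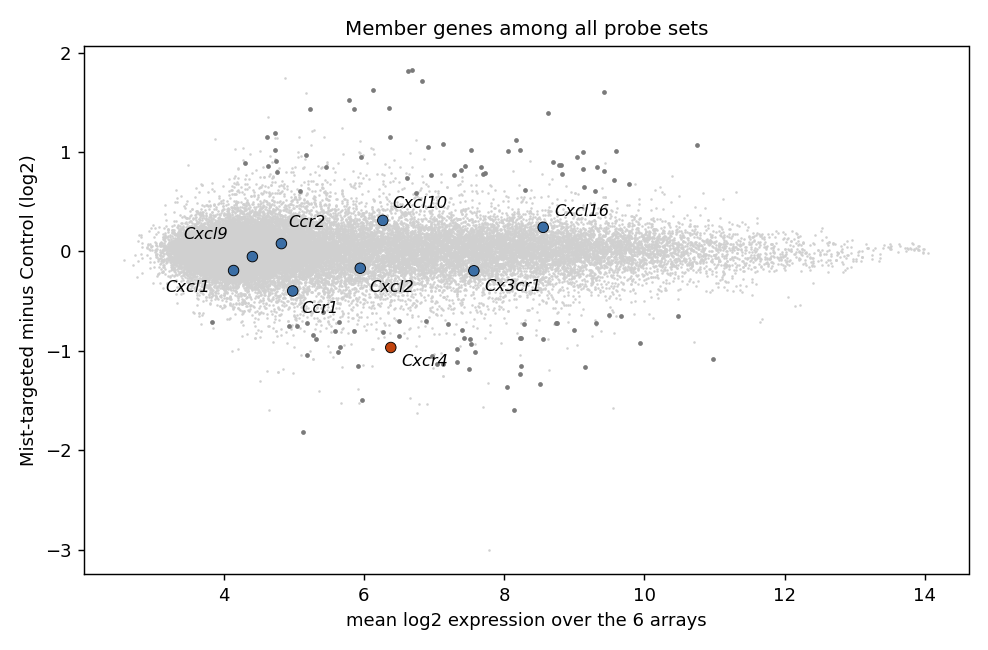
Mean log2 expression over the 6 arrays (horizontal) against Mist-targeted minus Control (vertical) for all 41345 probe sets; pale points did not pass, dark grey points had an adjusted p under 0.05, and the 9 genes are labelled, Cxcr4 in red and the 8 that did not pass in blue. Cxcr4 lies at -0.97 among the probe sets that fell, and the other 8 genes lie between -0.40 and 0.31.

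Among 7 receptor genes set beside genes of their ligands, Cxcr4 and Cxcr3 passed. Cxcr3, the receptor of CXCL9 and CXCL10, rose in Mist-targeted cells, with 7.04, 7.02 and 7.06 against 6.44, 6.50 and 6.42 in Control cells. The difference was 0.59 ± 0.077 (SE; limma, adjusted p = 0.043), and it kept its size but not its call when any array was left out (0.57 to 0.61; adjusted p 0.11 to 0.18). Cxcr3 and Cxcr4 therefore passed in opposite directions on the same arrays. Cxcl11, a further ligand gene set beside Cxcr3, differed by 0.20 ± 0.12 and did not pass (limma, adjusted p = 0.67). Its means, 4.41 in Mist-targeted and 4.21 in Control cells, lay below the array medians. Cxcr2 and Cxcr6, the receptors of CXCL1 and CXCL2 and of CXCL16, differed by -0.07 ± 0.14 and 0.02 ± 0.092, with means below the array medians. Of the ligands of CCR2 and CCR1, Ccl2 rose by 1.60 ± 0.11 and Ccl5 fell by 1.59 on the log2 scale (adjusted p = 0.0053 for both), while their receptor genes did not pass; without single arrays their adjusted p lay between 0.027 and 0.053. Fractalkine, Cx3cl1, differed by 0.19 ± 0.13 (adjusted p = 0.71), with means below the array medians (4.34 in Mist-targeted and 4.15 in Control cells).

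**Figure D4:**
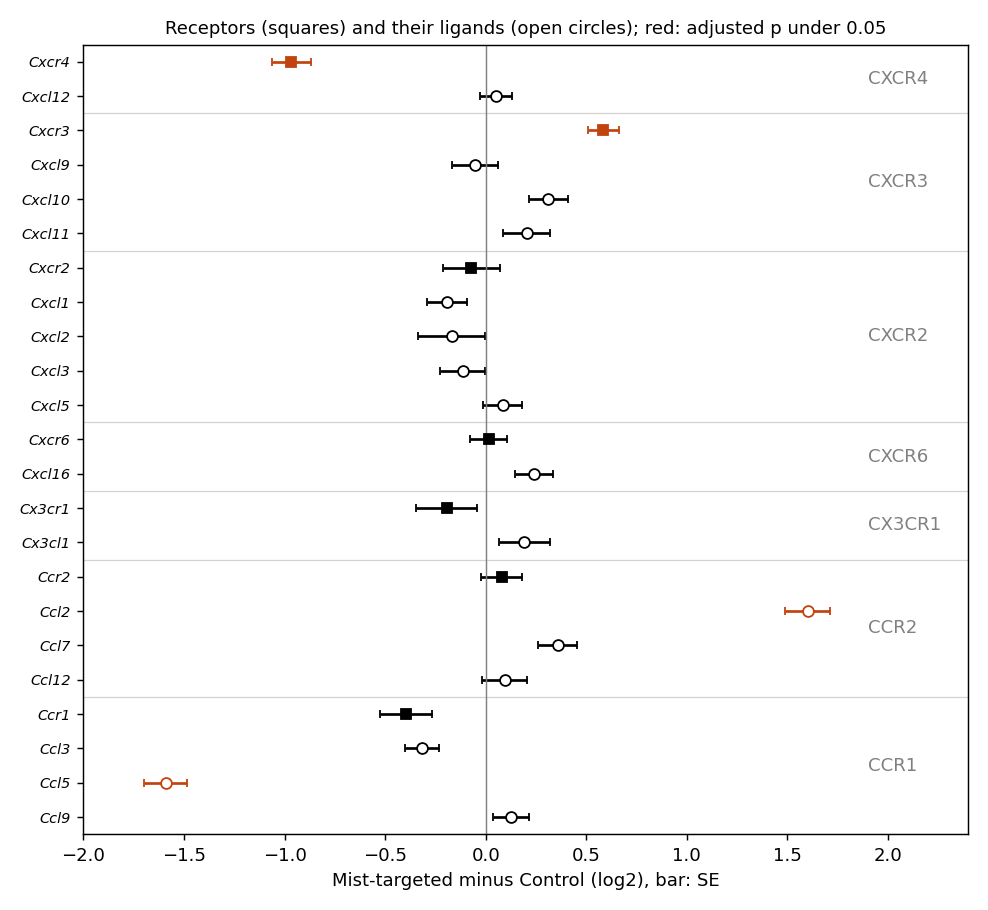
Log2 difference, Mist-targeted minus Control (bars, SE), for 7 receptor genes (squares) and genes of ligands they bind (open circles); red marks an adjusted p under 0.05. Cxcr4 (-0.97) and Ccl5 (-1.59) lie to the left, Cxcr3 (0.59) and Ccl2 (1.60) to the right, and no receptor passed together with a ligand of its own. Several of the ligand genes, among them Cxcl11 and Cx3cl1, had means below the array medians, which limits what could be seen.

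The remaining genes of the pathway were counted over lists fixed by name. Of 11 other CXC and CX3C ligand genes 0 passed (limma; 1 at an unadjusted p under 0.05, median 0.05), with Pf4 and Cxcl14 (0.24 ± 0.12) nearest to the threshold. Of 9 CC ligand genes Ccl2 rose, Ccl5 fell and 7 did not pass (median 0.11). Of the 19 other receptor genes Cxcr3 rose and 18 did not pass (median 0.03). Among the 18 was Ccrl2, an atypical receptor that binds chemerin without signalling, at -0.70 ± 0.11 (adjusted p = 0.060); it had 5.36, 5.43 and 5.47 on Mist-targeted arrays against 6.07, 5.98 and 6.30 on Control arrays, and was picked with these values in view.

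Of 24 genes of receptor signalling and desensitisation 0 passed (limma; at an unadjusted p under 0.05, 3 were higher and 4 lower; median 0.02). Rgs18, a regulator of G protein signalling, had 7.21, 7.21 and 7.31 on Mist-targeted arrays against 6.81, 6.80 and 6.48 on Control arrays (0.55 ± 0.11; adjusted p = 0.13). Arrb1, which encodes beta-arrestin 1, had 8.12, 8.42 and 8.49 on Mist-targeted arrays against 8.94, 8.86 and 8.75 on Control arrays (-0.51 ± 0.12; adjusted p = 0.17). The groups did not overlap in either gene. Arrb2, the second beta-arrestin gene, lies near Cxcl16 with Med11 between them; it differed by 0.33 ± 0.11 (adjusted p = 0.36), and Med11 by 0.0017. Of 10 protease and inhibitor genes that process ligands 0 passed (limma; 1 at an unadjusted p under 0.05, median 0.0038), with the macrophage elastase gene Mmp12 at -0.55 ± 0.20 and Mmp9 at 0.12 ± 0.096. Adam10 and Adam17, which encode proteases that shed CXCL16, differed by 0.01 ± 0.084 and 0.03 ± 0.085.

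Of 18 genes of transcription and mRNA decay factors known to act on such genes, Stat2, a subunit of the interferon-activated factor ISGF3, rose by 0.67 ± 0.079 (SE; limma, adjusted p = 0.031) and 17 did not pass (median -0.01; at an unadjusted p under 0.05, 5 were higher and 0 lower). Its call too ended when any array was left out (adjusted p 0.091 to 0.17). The 5 measured genes of interferon regulatory factors on the list did not move together: Irf7 differed by 0.62 ± 0.094 (adjusted p = 0.061) and Irf1 by 0.40 ± 0.090 (adjusted p = 0.16), whereas Irf9 differed by -0.0020, Irf3 by -0.02 and Irf8 by -0.30. Among genes of NF-kB subunits and inhibitors, Nfkb2 differed by 0.29, Rela by 0.11, Relb by -0.04, Nfkbiz by -0.14 and Nfkbia by -0.23. Zfp36, whose product speeds the decay of mRNAs such as that of Cxcl2, differed by 0.34 ± 0.12 (adjusted p = 0.39), and its relatives Zfp36l1 and Zfp36l2 by 0.02 and -0.05. The names in these last sentences were picked with their values in view. The same holds for Cxcl11, Cxcl12, Ackr3, Hif1a, Cx3cl1, Cxcr2, Cxcr6, Arrb2, Adam10 and Adam17 above.

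**Figure D5:**
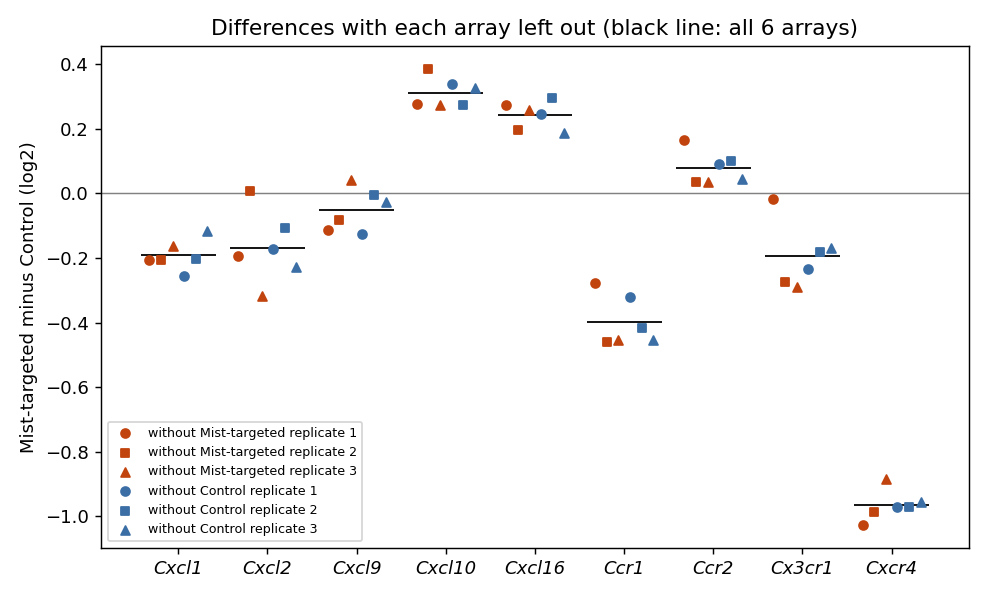
Log2 difference, Mist-targeted minus Control, of the 9 genes after leaving out each array (red, a Mist-targeted array; blue, a Control array; marker shape gives the replicate number), with the value from all 6 arrays as a black line. Cxcr4 stays between -1.03 and -0.89, Cx3cr1 moves to -0.02 without Mist-targeted replicate 1, and Cxcl2 and Cxcl9 cross 0 without Mist-targeted replicates 2 and 3 in that order.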

How the data were processed

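The deposited values are log2 expression per probe set, 1 column per array. Per the submitters' processing notes, RMA and Partek were used, with no version or role stated; their settings and the genome build were not given in the sources used here. The RMA method brings arrays to a common distribution, which would reduce a change shared by most transcripts. Values ranged from 2.50 to 14.1, and all 6 columns were used.

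Samples were grouped by the GapmeR in the labels, which give no batch. If the samples were not separate cultures, p-values measure technical spread. Correlations between arrays were 0.988 to 0.991 within and 0.986 to 0.989 between groups.

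Of 41345 probe sets, the platform annotation listed 23521 with 1 gene, 1814 with several and 16010 with none. Gene IDs of all 9 genes were matched in the RefSeq table of GRCm38.p6. A gene was read at its probe set with the highest mean. Background was not measured, so low values may understate a difference.

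Mist-targeted minus Control was fitted with limma 3.58.1 in R 4.3.3 (lmFit, eBayes, two-sided, no covariate, prior degrees of freedom 3.48) over all probe sets, checked on simulated data, with Benjamini-Hochberg adjustment and a threshold of 0.05. With 3 against 3 arrays, exact permutation can reach p = 0.1 at the lowest. Named genes are the 9, and per list up to 4 past the threshold or else the 2 with the smallest p; any other list gene or neighbour named was chosen with its values known. For the 2 of the 9 with the largest differences, the 3 genes with the highest correlation are named. The genes and lists were chosen with earlier results of these data known. Python 3.11.15, pandas 2.3.3 and matplotlib 3.10.9 made sequences and plots. Protein sequences were not used here. Alternatives are given in the closing section.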

Additional observations from a re-analysis of the deposited data

How the results depend on the processing

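The alternatives tried were a replicate block, trended and robust eBayes, a linear fit without moderation, dropping the dimmest 40% of probe sets, listed probe sets only, quantile normalization, median centring, array weights, averaging the probe sets of each gene (1 for each of the 9) and leaving out each array. Cxcr4 remained called in 7 of the 9 that keep all arrays. With the replicate block its difference was -0.97 (adjusted p = 0.12) and without moderation -0.97 (adjusted p = 0.14). Without single arrays it was -1.03 to -0.89, and the count among the 9 genes was 0 in each case (3 to 4 at an unadjusted p under 0.05), as with the block (4 unadjusted) and without moderation (3 unadjusted). Genes of the pathway lists called, 4 of 91 in the reported fit, were 0 with the block (25 unadjusted), 0 without moderation (22 unadjusted), 11 among listed probe sets and 0 to 2 without single arrays. Over the whole table, where 105 probe sets passed (53 higher, 52 lower), counts were 0 with the block (4368 unadjusted), 0 without moderation (4106 unadjusted), 287 with trend and robust (117 higher, 170 lower), 161 without dim probe sets, 721 among listed probe sets (275 higher, 446 lower) and 2 to 40 without single arrays. Fewer residual degrees of freedom or samples, or fewer probe sets tested, are part of these settings; the cause was not tested further. Of the other 8 genes 0 passed in any setting, and those that changed sign were Cxcl2 (0.0067 without Mist-targeted replicate 2; range without single arrays -0.32 to 0.0067) and Cxcl9 (0.040 without Mist-targeted replicate 3; range -0.12 to 0.040). Same-numbered arrays correlated at 0.20, 0.096 and 0.033 in their deviations from the group means, each more than with other numbers (at most -0.091, 0.060 and 0.027). Deviations within a group sum to 0, so a higher correlation with 1 array goes with lower ones with the others. The margin was small for replicate 3, and these values cannot decide whether the arrays were paired. The labels do not say whether the numbers mark pairs, and the reported fit did not take them as pairs. If they do, the fit with the replicate block, in which Cxcr4 did not pass, is the one that applies. The number of arrays and the low signal of Cxcl1 and Cxcl9 limit what could be detected. Ccr2, with means of 4.86 in Mist-targeted and 4.78 in Control cells, and Ccr1, with 4.79 and 5.18, also lay not far above the array medians.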
